A study of Mus musculus with 6 samples.

Results

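The 10 genes S100a8, S100a9, Csf3r, Il1b, Retnlg, Ngp, Camp, Mpo, Elane and Ly6g are all used as markers of neutrophils. They were chosen by name and were found among the 18453 genes listed for 6 mouse livers. These members and the gene lists used below were chosen with earlier results of these data known. Bulk RNA-seq was performed on livers of Mettl14f/f males on a high fat diet (HFD), 3 transduced with AAV8-TBG-GFP and 3 with AAV8-TBG-Cre. The mice went onto HFD at 8 weeks of age, received the vector 10 weeks later and were sampled 8 weeks after that. Both groups carried the floxed Mettl14 alleles, the diet and an AAV8 vector, and differed in the protein the vector encoded. They also differed in the source of the vector. By the paper's methods the Cre vector came from Addgene and its other AAV vectors were made in its own laboratory. Effects of the protein and of the source cannot be told apart. The sample labels give the genotypes as WT for the AAV8-TBG-GFP livers and METTL14 KO for the AAV8-TBG-Cre livers. The TBG promoter is restricted to hepatocytes, so Cre was directed to hepatocytes and not to neutrophils. The comparison asked how the neutrophil transcripts of the liver differed between the 2 vectors.

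Neutrophils are short-lived granulocytes that are made in the bone marrow and reach the liver through the blood. Their granule proteins are transcribed in order during maturation. Genes of the primary (azurophil) granules, such as Mpo and Elane, are transcribed in promyelocytes. Those of the secondary granules, such as Ngp, Camp and Ltf, are transcribed in myelocytes. S100a8, S100a9, Csf3r and Il1b are transcribed in mature cells, but not only at that stage. In the liver, neutrophils patrol the sinusoids and are recruited by chemokines, adhesion molecules and interleukin 1 signals.

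The promoters of the members are shown because C/EBP factors and PU.1 are known to drive granulocyte genes, and 4 are printed: the calprotectin pair S100a8 and S100a9, the granule gene Ngp and Ly6g, the member that was lower in AAV8-TBG-Cre livers. RefSeq sequences of build GRCm38.p6 (mm10) were found for 10 of 10 members. Each run holds the 250 bases before the annotated start, 5′ to 3′ on the strand of the gene. Capitals mark matches, on either strand, to TTGCNNAA (a C/EBP form) or to GAGGAA (a PU.1 form), and no match to one overlapped a match to the other in these 4 windows. The S100a8 window is chr3:90668821-90669070 on the plus strand, that of S100a9 is chr3:90695722-90695971 on the minus strand, that of Ngp is chr9:110419558-110419807 on the plus strand, and that of Ly6g, at the first of 2 annotated starts, is chr15:75155011-75155260 on the plus strand.
S100a8: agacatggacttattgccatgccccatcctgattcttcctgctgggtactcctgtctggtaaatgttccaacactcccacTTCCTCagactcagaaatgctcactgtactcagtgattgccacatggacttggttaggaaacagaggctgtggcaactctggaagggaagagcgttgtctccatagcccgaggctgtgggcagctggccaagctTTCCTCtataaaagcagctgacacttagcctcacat
S100a9: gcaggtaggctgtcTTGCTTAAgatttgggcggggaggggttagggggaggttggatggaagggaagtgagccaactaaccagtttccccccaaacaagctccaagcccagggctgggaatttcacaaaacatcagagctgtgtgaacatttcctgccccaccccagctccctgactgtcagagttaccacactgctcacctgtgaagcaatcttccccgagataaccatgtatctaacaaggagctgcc
Ngp: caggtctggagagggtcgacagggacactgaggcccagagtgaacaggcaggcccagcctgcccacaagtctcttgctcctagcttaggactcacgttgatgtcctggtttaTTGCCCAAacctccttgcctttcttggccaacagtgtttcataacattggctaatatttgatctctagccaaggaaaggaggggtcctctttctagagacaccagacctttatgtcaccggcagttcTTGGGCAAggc
Ly6g: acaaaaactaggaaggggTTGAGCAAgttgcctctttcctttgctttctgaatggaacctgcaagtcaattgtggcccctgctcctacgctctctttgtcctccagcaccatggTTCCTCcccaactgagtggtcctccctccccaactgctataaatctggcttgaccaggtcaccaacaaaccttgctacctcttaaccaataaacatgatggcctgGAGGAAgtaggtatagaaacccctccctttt
S100a8 held 2 PU.1 matches, beginning 170 and 36 bases before the start, and no C/EBP match. S100a9, whose gene lies 22595 bases from S100a8, held 1 C/EBP match 236 bases before its start. Ngp held 2 C/EBP matches, 138 and 11 bases before its start. Ly6g held 1 C/EBP match at 232 bases and 2 PU.1 matches at 136 and 31 bases. Over the 10 members, 4 held a C/EBP match and 5 a PU.1 match, against 9.56% and 23.3% of 32851 promoter windows of the same length. For Ly6g this took the first start, and the window at the second held 2 PU.1 matches and no C/EBP match. A match is a run of letters and no measurement of binding.

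The libraries held between 20356440 and 21010508 counts. Mettl14 counts were 124, 126 and 111 under AAV8-TBG-GFP and 104, 131 and 101 under the AAV8-TBG-Cre label, for a log2 fold change of -0.29 (SE 0.15, edgeR adjusted p = 0.337), so the targeted gene did not separate the labels in whole liver. The count covers the whole gene and all liver cells, and AAV8-TBG-Cre names the label of a library throughout. Alb, the main hepatocyte transcript, stood at 70992 and 62080 CPM (counts scaled to the TMM-normalized library size) on average. The names of the libraries took 2 forms, one for AAV8-TBG-GFP 1 and 2 and AAV8-TBG-Cre 1 and the other for the remaining 3, and values within each form are given where they bear on a member. AAV8-TBG-Cre 2 stood apart in its leukocyte genes, as given below.

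All 10 members were rare transcripts. Per length, the order in AAV8-TBG-GFP livers, in fragments scaled by length and library size (FPKM), was Ly6g at 5.63 ± 0.553 (SD, n = 3 here and below), S100a9 at 1.72 ± 0.520, Il1b at 1.00 ± 0.387, Csf3r at 0.897 ± 0.0586, S100a8 at 0.713 ± 0.0757 and Elane at 0.357 ± 0.150. Retnlg (0.167), Mpo (0.0800), Ngp (0.0567) and Camp (0.0567) were last. Ly6g lay clear of its neighbour, whereas the ranges of S100a9 and Il1b, of Il1b and Csf3r, and of the last 4 overlapped. In AAV8-TBG-Cre livers S100a9 came first at 5.27 ± 1.93 FPKM, followed by Ly6g at 4.43 ± 0.696, S100a8 at 3.50 ± 0.262, Csf3r at 2.03 ± 1.13, Il1b at 1.203 ± 0.321 and Ngp at 1.16 ± 0.761. Each neighbouring pair of these 6 overlapped in range. Retnlg (0.827), Elane (0.447), Camp (0.417) and Mpo (0.180) were last.

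**Figure D1:**
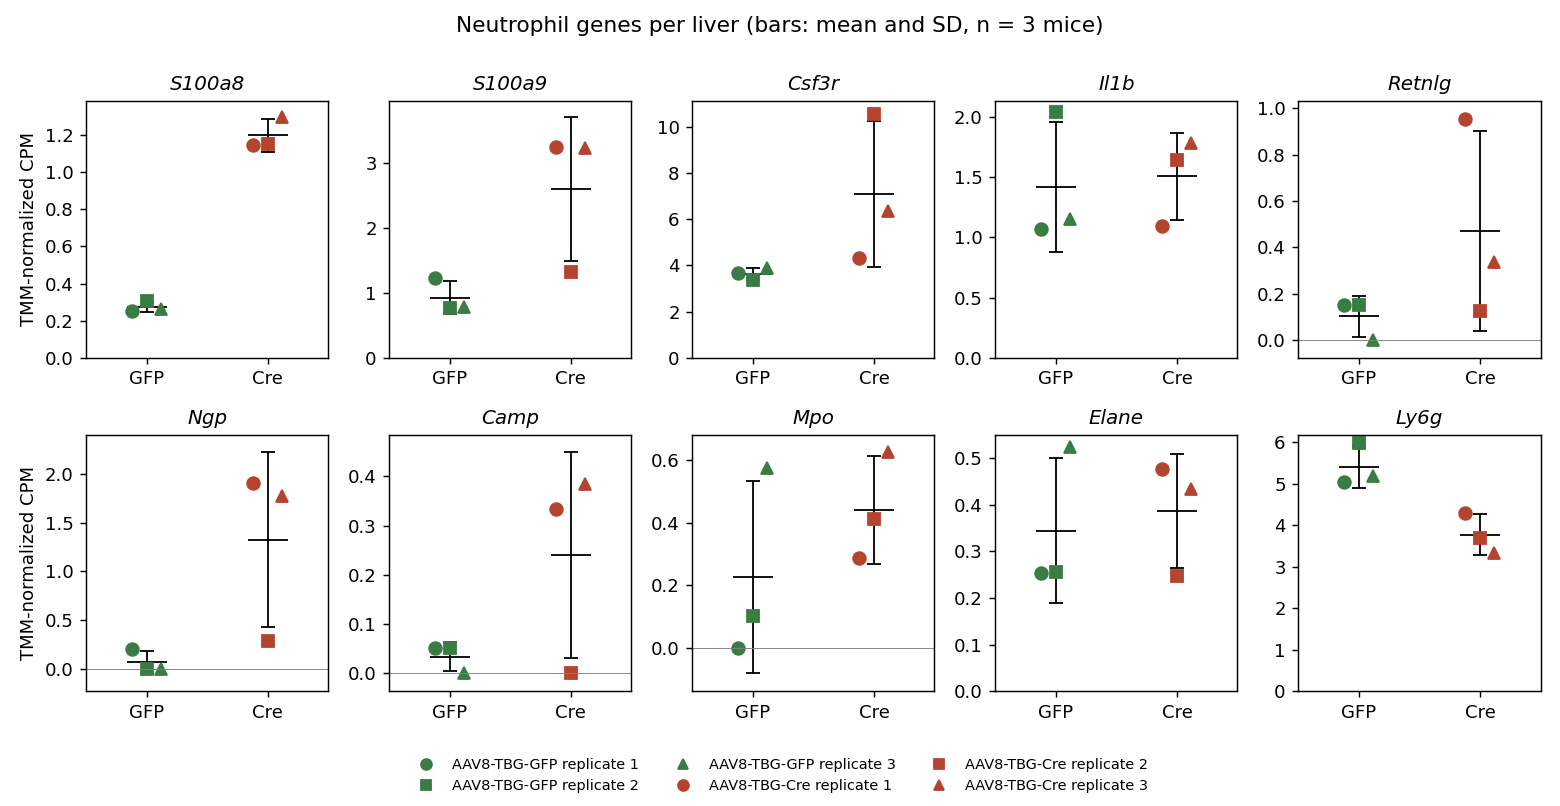
TMM-normalized CPM (vertical axis, linear, 1 scale per gene) of the 10 neutrophil genes in 3 AAV8-TBG-GFP livers (green) and 3 AAV8-TBG-Cre livers (red). Symbols mark the replicate number and bars the mean and SD; S100a8 sits between 1.15 and 1.30 in the AAV8-TBG-Cre livers and between 0.254 and 0.306 in the others, while Ly6g runs the other way.

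S100a8 was the member with the clearest difference, and S100a9 leaned the same way with more spread. They encode the subunits of calprotectin, the calcium-binding heterodimer that fills the neutrophil cytosol and acts as an alarmin when released. S100a8 had counts of 5, 6 and 5 in AAV8-TBG-GFP livers 1 to 3 and 24, 28 and 27 in AAV8-TBG-Cre livers 1 to 3. The groups did not overlap, and the replicates within each group lay close together. Mean CPM went from 0.274 ± 0.0281 to 1.198 ± 0.0877, and S100a8 rose by a log2 fold change of 2.10 (SE 0.33, 95% interval 1.33 to 2.87, edgeR adjusted p = 0.0409 over 13431 genes). The summed counts gave a ratio of 4.36 with a counting interval of 2.53 to 8.00. With 5 or 6 counts per AAV8-TBG-GFP library, S100a8 entered the test only through the livers where it was high. The threshold was an adjusted p under 0.05, and the unadjusted threshold used below was that of the study, p under 0.05 with at least a 1.2-fold change. The call was lost (edgeR adjusted p between 0.0815 and 0.173) on leaving out AAV8-TBG-GFP 1, 2 or 3 or AAV8-TBG-Cre 2 or 3, and was kept at 0.0338 without AAV8-TBG-Cre 1. With the name form as a covariate the adjusted p was 0.0515 in edgeR.

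S100a9 had counts of 24, 15 and 15 in the AAV8-TBG-GFP livers and 68, 32 and 67 in the AAV8-TBG-Cre livers. The groups did not overlap, and AAV8-TBG-Cre 2 lay near AAV8-TBG-GFP 1, at 1.31 against 1.22 CPM, while the other AAV8-TBG-Cre livers stood at 3.24 and 3.22 CPM. The log2 fold change was 1.48 (SE 0.42, 95% interval 0.49 to 2.46, edgeR adjusted p = 0.116), so S100a9 did not pass the adjusted threshold. Of the 2 annotated S100a9 transcripts, 537 and 534 bases long, the deposited counts assigned all 68 fragments of AAV8-TBG-Cre 1 to the longer and all 67 of AAV8-TBG-Cre 3 to the shorter. The sum per gene was used here. Within the 2 forms of library name the log2 difference was 2.03 and 2.23 for S100a8 and 1.71 and 1.53 for S100a9.

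The secondary granule genes Ngp and Camp were near 0 in AAV8-TBG-GFP livers and reached their highest counts in AAV8-TBG-Cre 1 and 3. Ngp encodes neutrophilic granule protein, a cystatin-like protein, and Camp the cathelicidin antimicrobial peptide. Ngp had counts of 4, 0 and 0 in the AAV8-TBG-GFP livers and 40, 7 and 37 in the AAV8-TBG-Cre livers. The groups did not overlap, but AAV8-TBG-Cre 2 lay much nearer to AAV8-TBG-GFP 1 than to the other AAV8-TBG-Cre livers. Camp had 1, 1 and 0 counts against 7, 0 and 8, so the groups overlapped at AAV8-TBG-Cre 2. Both genes were too sparse for the filtered test. In edgeR without the filter (18419 genes) the log2 fold change was 4.14 for Ngp (95% interval 1.80 to 6.49, adjusted p = 0.0766) and 2.57 for Camp (95% interval -0.35 to 5.48, adjusted p = 0.349). The ratio of summed counts was 18.6 for Ngp (counting interval 6.98 to 69.7) and 6.63 for Camp (1.54 to 59.7).

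Retnlg, which encodes the resistin-like protein gamma of neutrophils, had counts of 3, 3 and 0 in the AAV8-TBG-GFP livers and 20, 3 and 7 in the AAV8-TBG-Cre livers. AAV8-TBG-Cre 1 was the highest, and AAV8-TBG-Cre 2 lay within the range of the AAV8-TBG-GFP livers. The unfiltered log2 fold change was 2.11 (95% interval -0.08 to 4.30, edgeR adjusted p = 0.301). Without AAV8-TBG-Cre 2 it was 2.57 for Retnlg and 3.16 for Camp, and both then passed the unadjusted threshold. Neither passed it on leaving out any other liver. Retnlg was lowest without AAV8-TBG-Cre 1, at 1.08, and Camp without AAV8-TBG-Cre 3, at 2.03. Ltf, the lactoferrin gene of the same granules and no member, had 5, 0 and 0 counts against 24, 8 and 32 and thus the same low value in AAV8-TBG-Cre 2. In the 3 libraries that share 1 form of name, the log2 difference was 4.23 for Ngp, 2.71 for Camp and 2.64 for Retnlg, and the other form could not give a value because its AAV8-TBG-GFP liver was at 0. Ltf was singled out after its values were seen.

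The primary granule genes gave no difference that could be detected at this depth. Mpo encodes myeloperoxidase and Elane neutrophil elastase. Mpo had counts of 0, 2 and 11 in the AAV8-TBG-GFP livers and 6, 10 and 13 in the AAV8-TBG-Cre livers. Elane had 5, 5 and 10 against 10, 6 and 9. The groups overlapped for both genes. Unfiltered log2 fold changes were 0.94 for Mpo (95% interval -1.08 to 2.97, edgeR adjusted p = 0.627) and 0.14 for Elane (95% interval -1.12 to 1.40, adjusted p = 0.922). Mpo depended on AAV8-TBG-GFP 3, and without it the log2 fold change was 2.96 and passed the unadjusted threshold. Within the 2 forms of library name the log2 difference was 2.49 and -0.15 for Mpo and 0.91 and -0.62 for Elane.

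Csf3r, the receptor for granulocyte colony-stimulating factor, was highest in AAV8-TBG-Cre 2, the liver of its group where Ngp, Camp and Retnlg were lowest. It had counts of 72, 66 and 74 in the AAV8-TBG-GFP livers and 91, 257 and 132 in the AAV8-TBG-Cre livers. The groups did not overlap, and AAV8-TBG-Cre 1 lay just above the AAV8-TBG-GFP range. Mean CPM was 3.63 ± 0.254 and 7.08 ± 3.17, with a log2 fold change of 0.97 (SE 0.32, 95% interval 0.22 to 1.71, edgeR adjusted p = 0.151). Without AAV8-TBG-Cre 2 the log2 fold change of Csf3r was 0.55 (edgeR adjusted p = 0.347), and without AAV8-TBG-GFP 2 it was 0.91 and no longer passed the unadjusted threshold. Within the 2 forms of library name it was 0.31 and 1.13.

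Il1b, the interleukin 1 beta cytokine that neutrophils share with monocytes and macrophages, had counts of 21, 40 and 22 in the AAV8-TBG-GFP livers and 23, 40 and 37 in the AAV8-TBG-Cre livers. The groups overlapped fully, with AAV8-TBG-GFP 2 as high as any. The log2 fold change was 0.09 (95% interval -0.74 to 0.92, edgeR adjusted p = 0.915). Its sign turned on leaving out AAV8-TBG-GFP 1 (-0.09), AAV8-TBG-GFP 3 (-0.05) or AAV8-TBG-Cre 3 (-0.05), and it was -0.50 and 0.57 within the 2 forms of library name.

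Ly6g, which encodes the surface antigen used to sort mouse neutrophils, was the only member that was lower in AAV8-TBG-Cre livers. It had counts of 99, 117 and 99 in the AAV8-TBG-GFP livers and 90, 90 and 69 in the AAV8-TBG-Cre livers. In CPM the AAV8-TBG-GFP livers lay at 5.03, 5.97 and 5.18 and the AAV8-TBG-Cre livers at 4.29, 3.70 and 3.32, without overlap. The log2 fold change was -0.52 (SE 0.19, 95% interval -0.95 to -0.08, edgeR adjusted p = 0.177). It missed the unadjusted threshold without AAV8-TBG-GFP 2 (log2 fold change -0.44) or AAV8-TBG-Cre 3 (-0.44), and gave -0.36 and -0.56 on the log2 scale within the 2 forms of library name. Ly6g was thus both the most abundant member per length in AAV8-TBG-GFP livers and opposite in direction to S100a8, S100a9, Ngp and Csf3r. Ly6g belongs to the Ly6 gene family, whose members can share fragments, and its likeness to the other members was not measured here. Its deposited expected counts, before rounding, lay between 68.93 and 116.73 and 5 of the 6 were within 0.1 of a whole number. Of the family, Ly6c2, a monocyte antigen, stood at 2.08, 2.13 and 2.75 FPKM in the AAV8-TBG-GFP livers and at 3.85, 2.91 and 3.09 in the AAV8-TBG-Cre livers, and Ly6i was at or below 0.190 FPKM in each library.

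**Figure D2:**
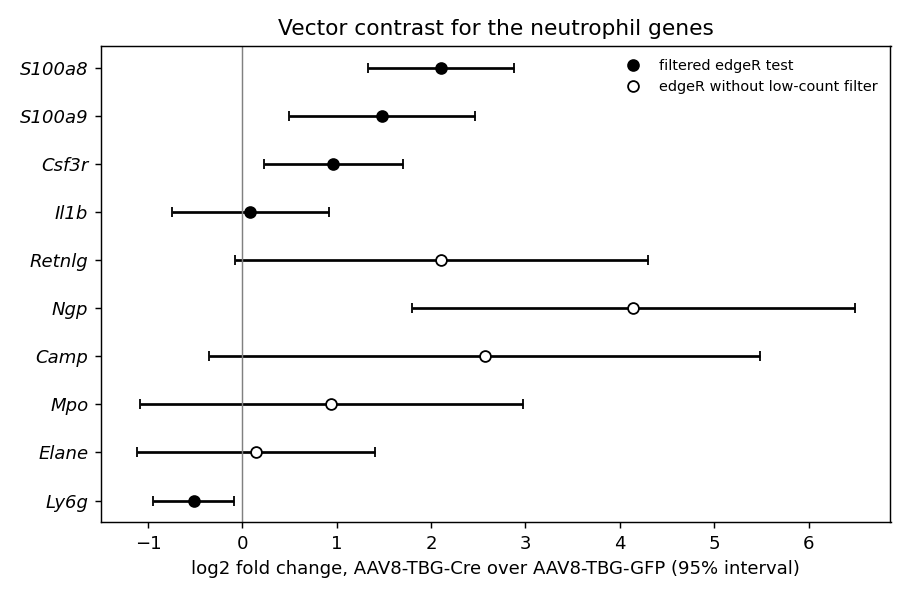
Log2 fold change (horizontal axis) of AAV8-TBG-Cre over AAV8-TBG-GFP livers for the 10 neutrophil genes, with 95% intervals from edgeR; filled points passed the filter on low counts and open points come from the fit without it. The intervals of S100a8, S100a9, Csf3r and Ngp lie above 0, that of Ly6g lies below 0 and the other 5 include 0.

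Of the 10 members, 5 passed the filter on low counts (S100a8, S100a9, Csf3r, Il1b and Ly6g) and 5 did not. Of the 5, 1 (S100a8) was called higher at an edgeR adjusted p under 0.05, against 0.484% of all 13431 genes tested. At the unadjusted threshold of p under 0.05 and at least 1.2-fold, 3 were higher and 1 lower, against 12% and 8.41% of all genes. Groups did not overlap for 3 in the higher and 1 in the lower direction, against 14% and 13%, and 4 of 5 had a positive log2 fold change, against 49%. Because S100a8 entered through the AAV8-TBG-Cre livers alone, these counts describe the genes tested and lend no weight to the list. The median log2 fold change was 0.97 over the 5 and 1.21 over all 10 without the filter, where all genes had medians of -0.01 and 0.01. For S100a8, S100a9, Csf3r and Ly6g, as for Ngp without the filter, the exact two-sided permutation test over the 6 livers gave p = 0.1, the smallest that 3 against 3 allows.

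The members were also expressed relative to genes that leukocytes share. In bulk liver, more cells of a type and more RNA per cell cannot be told apart. The mean log2 CPM of the pan-leukocyte genes Ptprc, Cd53, Coro1a, Laptm5 and Lcp1 was 3.78, 3.74 and 3.68 in the AAV8-TBG-GFP livers and 4.20, 4.91 and 4.28 in the AAV8-TBG-Cre livers, a difference of 0.73 (exact permutation p = 0.1). AAV8-TBG-Cre 2, the lowest of its group for S100a9, Ngp, Camp and Retnlg, was the highest for these genes. Of the 5, 4 were higher at the unadjusted threshold, against 12% of all genes, and also 4 without AAV8-TBG-Cre 2. None was higher at an edgeR adjusted p under 0.05, with or without that liver. DESeq2 called 3 higher at its adjusted threshold, where it called 748 of 18419 genes higher. Lcp1 passed neither threshold (log2 fold change 0.19). Their summed CPM ranged from 140 to 156 and from 167 to 251.

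Relative to the pan-leukocyte mean, S100a8 was still higher, by 1.08 on the log2 scale, without overlap between the groups (exact permutation p = 0.1). S100a9 was higher by 0.60 with overlapping groups (exact p = 0.4). Csf3r differed by 0.13 with overlapping groups (exact p = 0.5). Il1b was lower by 0.62 with overlap (exact p = 0.2). Ly6g was lower by 1.24 without overlap (exact p = 0.1). Each of these 5 differences kept its sign on leaving out any 1 liver and with Ptprc alone as the reference, but the size depended on the liver left out. S100a9 was higher by 1.23 without AAV8-TBG-Cre 2, by 0.26 without AAV8-TBG-Cre 1 and by 0.30 without AAV8-TBG-Cre 3.

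**Figure D3:**
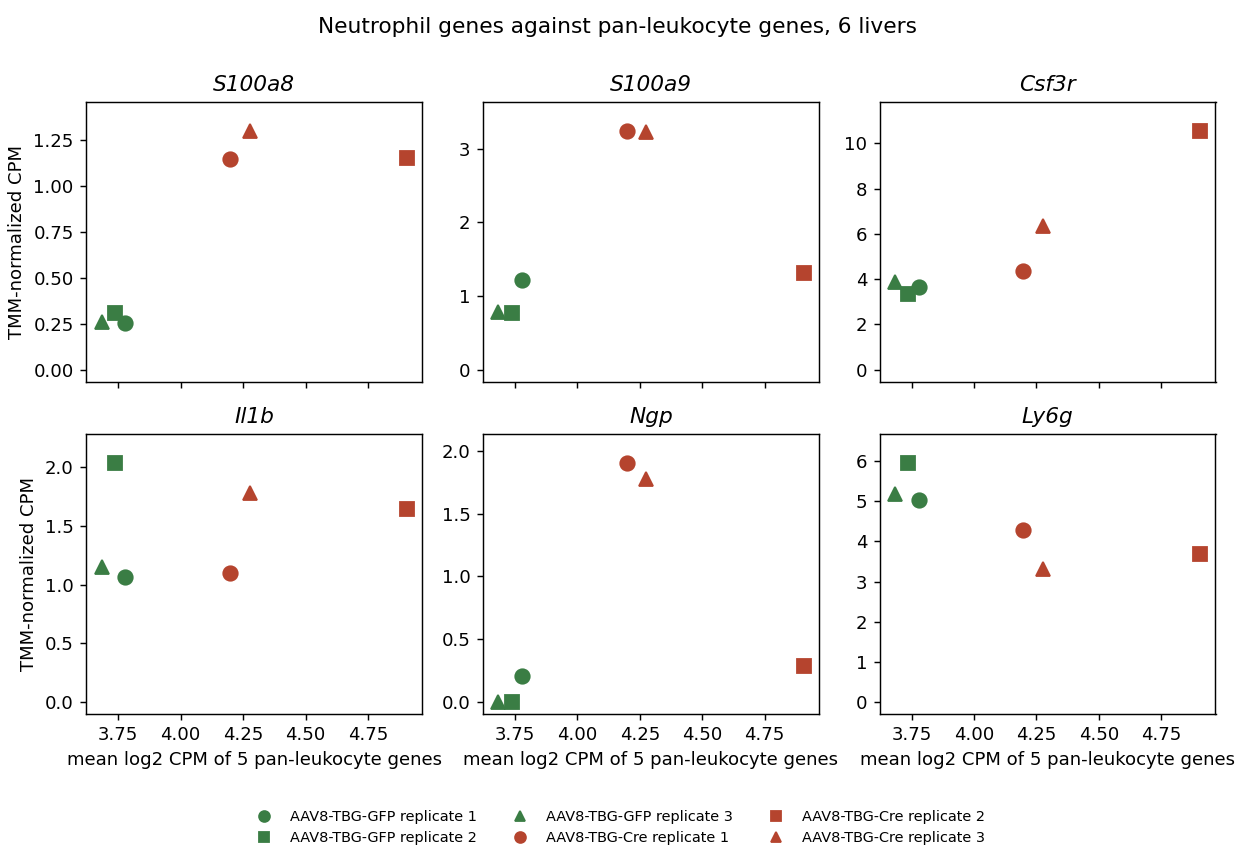
CPM (vertical axis, linear) of 6 neutrophil genes against the mean log2 CPM of 5 pan-leukocyte genes (horizontal axis), 1 point per liver, green for AAV8-TBG-GFP and red for AAV8-TBG-Cre. AAV8-TBG-Cre 2, at 4.91 on the horizontal axis, is the highest point for Csf3r and the lowest red point for S100a9 and Ngp.

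Among 24 listed genes of the mature neutrophil cytosol and surface, which include 6 members, 15 were tested. Of these, 2 rose at an edgeR adjusted p under 0.05, S100a8 and Slpi, against 0.484% of all genes. Slpi, the secretory leukocyte protease inhibitor, which epithelial cells and macrophages also make, had counts of 12, 13 and 18 in the AAV8-TBG-GFP livers and 59, 113 and 66 in the AAV8-TBG-Cre livers. The groups did not overlap, and Slpi rose by a log2 fold change of 2.26 (SE 0.32, edgeR adjusted p = 0.0363). This call was lost (edgeR adjusted p between 0.0757 and 0.161) on leaving out any liver other than AAV8-TBG-Cre 1. It was also lost with the replicate number as a block. At the unadjusted threshold 4 of the 15 were higher, against 12% of all genes, and 1 was lower, against 8.41%, and the median was 0.33. Members made up 3 of the 4 (S100a8, S100a9 and Csf3r) and the 1 lower (Ly6g). Of the most abundant genes of the list, Wfdc21 stood at 169 and 121 CPM (log2 fold change -0.49, edgeR adjusted p = 0.286). Hdc, histidine decarboxylase, stood at 13.01 and 8.05 CPM (-0.69, edgeR adjusted p = 0.271). S100a9 stood at 0.923 CPM in the AAV8-TBG-GFP livers, far below both. Which cells the Wfdc21 and Hdc transcripts came from was not tested. Cxcr2, the receptor through which neutrophils follow CXC chemokines, stood at 4.94 ± 0.664 and 5.07 ± 0.487 CPM, with overlapping groups and a log2 fold change of 0.04 (edgeR adjusted p = 0.930). Cxcr2 was named after its values were seen, as was Fpr1, a formyl peptide receptor, at 1.97 ± 0.498 and 2.48 ± 1.55 CPM.

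Of 10 listed genes of the secondary and tertiary granules, 2 passed the filter and neither was called by edgeR at either threshold. Lcn2, lipocalin 2, which hepatocytes also secrete in the acute phase, ranged from 42.2 to 297 CPM in the AAV8-TBG-GFP livers and from 52.2 to 147 CPM in the AAV8-TBG-Cre livers, with overlap. Mmp9, a gelatinase, had a log2 fold change of 0.70 (edgeR adjusted p = 0.548). Without the filter, 8 of the 10 had a positive log2 fold change. At the unadjusted threshold 4 (Ngp, Ltf, Mmp8 and Pglyrp1) were higher in edgeR, against 1953 of 18419 genes. None of the 4 passed the adjusted one in edgeR. DESeq2 called 3 (Ngp, Ltf and Mmp8) higher, against 748 of 18419 genes. Mmp8, neutrophil collagenase, had 3, 1 and 1 counts against 7, 24 and 11, and Pglyrp1, a peptidoglycan recognition protein, 3, 1 and 4 against 6, 18 and 6, so both were highest in AAV8-TBG-Cre 2, unlike Ngp and Ltf.

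Of 7 listed genes of the primary granules and of granulocyte progenitors, Prtn3 and Cebpe were tested and neither was called at an edgeR adjusted p under 0.05, while Cebpe passed the unadjusted threshold. Prtn3, proteinase 3, had 13, 7 and 84 counts against 80, 21 and 22, a spread within each group larger than the difference between their means. Cebpe, a transcription factor of granule gene expression, was lower in AAV8-TBG-Cre livers, with 232, 214 and 193 counts against 149, 124 and 135. The groups did not overlap, and the log2 fold change was -0.81 (edgeR adjusted p = 0.0619, DESeq2 adjusted p = 0.00264). In AAV8-TBG-GFP livers Cebpe stood at 10.9 CPM, above Prtn3 at 1.81, Elane at 0.344 and Mpo at 0.226 CPM. Which cells the Cebpe transcripts came from was not tested. Ctsg, cathepsin G and a defining gene of the list, had 1 count over the 6 livers together.

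The 6 NADPH oxidase genes, which encode the phagocyte enzyme complex for superoxide and are shared by neutrophils, monocytes and macrophages, were all higher in AAV8-TBG-Cre livers. All 6 were so without overlap and at the unadjusted threshold, against 14% and 12% of all genes. Their median log2 fold change was 0.97. Cybb, the catalytic subunit, had 298, 284 and 272 counts against 651, 1095 and 556 and rose by a log2 fold change of 1.23 (SE 0.19, edgeR adjusted p = 0.0396). Cyba, its membrane partner, went from 7.21 ± 0.294 to 14.9 ± 6.43 CPM (log2 fold change 1.05) and passed the unadjusted threshold but not the adjusted one in edgeR, while DESeq2 called it (adjusted p = 0.0174). DESeq2 called 4 of the 6 higher, where it called 748 of 18419 genes higher. The edgeR call of Cybb was lost (adjusted p between 0.0563 and 0.167) on leaving out any liver other than AAV8-TBG-Cre 1. Without AAV8-TBG-Cre 2, the highest of the group for both, 4 of the 6 NADPH oxidase genes reached the unadjusted threshold, none was called at the adjusted one and the median was 0.61.

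Genes that bring neutrophils into tissue gave a mixed picture. Of 8 adhesion genes 7 were tested. At the unadjusted threshold 5 were higher, against 12% of all genes, and 4 without AAV8-TBG-Cre 2. None was higher at the adjusted one in edgeR, and the median was 0.94 (0.56 without AAV8-TBG-Cre 2). DESeq2 called 4 of them higher, against 748 of 18419 genes. The leukocyte integrin chains Itgam and Itgb2 had log2 fold changes of 1.44 and 0.98 (edgeR adjusted p = 0.0854 and 0.123). Their ligand Icam1 stood at 12.7 ± 3.87 and 24.4 ± 4.38 CPM (log2 fold change 0.94, edgeR adjusted p = 0.0821), and Vcam1 at 17.1 and 33.1 CPM (0.96, adjusted p = 0.138). Of 10 chemoattractants and growth factors 3 passed the filter, and none was called by edgeR at either threshold. Without the filter 9 were tested. Of these, 3 (Cxcl5, Ccl3 and Tnf) were higher at the unadjusted threshold in edgeR, against 1953 of 18419 genes. Neither edgeR nor DESeq2 called any at the adjusted one. Cxcl1, the main liver chemokine for neutrophils, stood at 12.2 ± 3.05 and 12.1 ± 3.79 CPM, with a log2 fold change of -0.02 (95% interval -0.62 to 0.58, edgeR adjusted p = 0.980). Cxcl5, too sparse for the filtered test, had 3, 4 and 6 counts against 12, 53 and 9. Tnf, an inflammatory cytokine and also too sparse, had 5, 3 and 2 against 11, 26 and 7. Both were without overlap, as were 14% of the genes that passed the filter. The share among sparser genes was not measured. Csf3, the ligand of Csf3r, had 1 count over the 6 livers together.

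Around Il1b, 10 of 11 listed genes of the interleukin 1 system were tested. At the unadjusted threshold 4 were higher, against 12% of all genes, and 2 without AAV8-TBG-Cre 2. None was higher at the adjusted one in edgeR, and DESeq2 called 2 higher, against 748 of 18419 genes. Il1rn, the receptor antagonist, stood at 8.27 ± 1.90 and 15.8 ± 2.94 CPM without overlap (log2 fold change 0.94, edgeR adjusted p = 0.0729), and Casp4, an inflammatory caspase, stood 1.24 higher on the log2 scale (adjusted p = 0.0832). The abundant receptor chains Il1rap and Il1r1, which hepatocytes express, had log2 fold changes of -0.37 and -0.27 (edgeR adjusted p = 0.298 and 0.620). Of 5 receptors and adaptors of S100A8/A9, 2 were higher at the unadjusted threshold, against 12% of all genes. These were Cd14 (log2 fold change 0.96, edgeR adjusted p = 0.138) and Tlr4 (0.68, adjusted p = 0.224), whereas Myd88 had a value of -0.24.

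**Figure D4:**
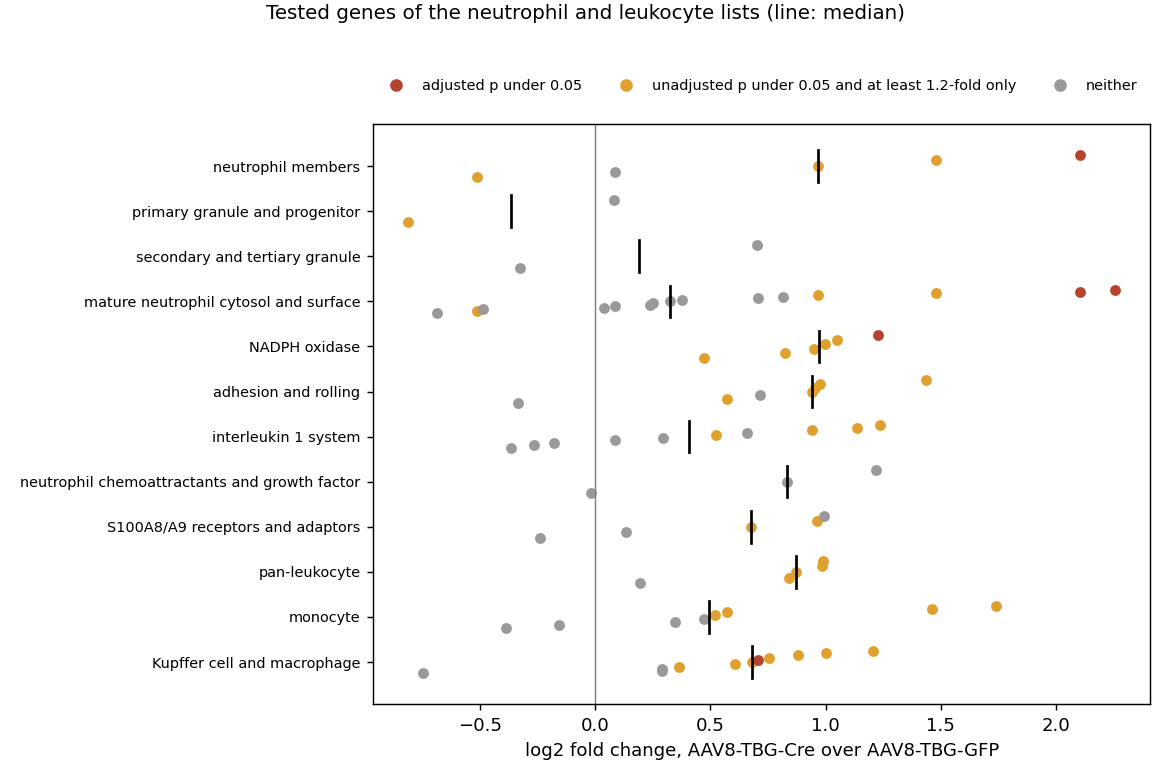
Log2 fold change (horizontal axis) of each tested gene in 12 lists of neutrophil and leukocyte genes, 1 point per gene, with a line at each median. Red points passed an edgeR adjusted p under 0.05 (S100a8, Slpi, Cybb and Cd5l). Orange points passed only an unadjusted p under 0.05 with at least 1.2-fold. S100a8 (2.10) and S100a9 (1.48) lie to the right of every pan-leukocyte gene. Slpi (2.26) lies to the right of both, and the monocyte gene Cx3cr1 (1.74) to the right of S100a9.

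Monocytes and macrophages also transcribe some of the members, among them Il1b. Of 8 monocyte genes 4 were higher at the unadjusted threshold, against 12% of all genes, and 2 were so without AAV8-TBG-Cre 2. The 4 were led by Cx3cr1 (log2 fold change 1.74, edgeR adjusted p = 0.0858) and Ccr2 (1.46, adjusted p = 0.102). Fn1 was lower without overlap (log2 fold change -0.39, edgeR adjusted p = 0.263, DESeq2 adjusted p = 0.0491), and Ly6c2, F13a1 and Nr4a1 did not pass. At 2755 and 2107 CPM on average, Fn1 stood far above the rest of the list, where Itgal was next at 11.6 and 17.2 CPM. Which cells its transcripts came from was not tested. Of 11 Kupffer cell and macrophage genes 8 were higher at the unadjusted threshold, against 12% of all genes. Cd5l passed the adjusted one (log2 fold change 0.71, edgeR adjusted p = 0.0471). Without AAV8-TBG-Cre 2 the numbers of genes higher at these thresholds were 7 and 0. The call of Cd5l was lost (edgeR adjusted p between 0.0705 and 0.194) on leaving out any liver other than AAV8-TBG-Cre 1, and Marco differed by -0.75 on the log2 scale (edgeR adjusted p = 0.380). The summed CPM of the 11 ranged from 288 to 330 in the AAV8-TBG-GFP livers and from 438 to 619 in the AAV8-TBG-Cre livers. No gene of either list was at 0 in any liver, and their part in the differences of the neutrophil genes was not tested.

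Likeness of pattern was measured as the root mean square difference of centred log2 CPM over the 6 livers, for the members with a mean of at least 1 CPM. The genes nearest to Csf3r were Ptpn22 (0.0745), Fmnl1 (0.0754) and Itgb2 (0.0788). The nearest to S100a9 were more distant, Tff3 (0.295), Steap2 (0.327) and Zfp57 (0.338). Those nearest to Il1b were Sarm1 (0.1), Tvp23a (0.105) and Foxa1 (0.115), and those nearest to Ly6g were Cdc14b (0.0423), Prkce (0.0433) and P2rx3 (0.0519). S100a8, with a mean under 1 CPM, was outside this rule.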

How the data were processed

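Livers of 6 mice, 3 per vector, were assigned to groups by the vector named in each sample's label. The authors deposited, for each liver, an expected count per transcript (an estimate of fragments that need not be whole) and FPKM per transcript and per gene. The submitters' processing notes list HISAT2, Bowtie2 and RSEM with build mm10, whereas the study's methods name STAR, HTSeq and DESeq2, and no versions are given. The deposited expected counts were summed per NCBI gene ID and rounded. Library totals lay between 20356440 and 21010508, and no pair of replicates agreed within sampling noise.

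Testing used edgeR's quasi-likelihood method (4.0.16, in R 4.3.3) on TMM-scaled counts after filterByExpr, with vector as the factor and Benjamini-Hochberg adjustment over 13431 genes. Genes outside the filter were taken from the fit without it. SE were derived from the quasi-F statistic. Log2 CPM carried a prior count of 2. Intervals on summed counts and their ratios are exact at 95% and cover counting error only. The edgeR p-values set the difference between the vectors against the spread among these 6 livers within groups, with a dispersion moderated over the genes tested. The steps were tested on simulated data.

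The tests were repeated with DESeq2 1.42.0, with upper quartile or RLE scaling, unfiltered or with 10 or more counts required in each library, with a block for the replicate number, with the name form as a covariate, and without each liver in turn. They were also repeated with limma 3.58.1 on log2 FPKM, with 1 or 0.1 added and a minimum of 0.5 FPKM in 3 libraries or no minimum. The combination of no filter with each liver left out was added after seeing the data. The text names all 10 members, genes of the lists past an adjusted p under 0.05 or among the most abundant, and the 3 genes nearest in pattern to each member of at least 1 CPM. Other genes of the lists were named after their values were seen. The members and lists were chosen with earlier results of these data known.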

Additional observations from a re-analysis of the deposited data

How the results depend on the processing

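At an adjusted p under 0.05, 65 genes were higher and 60 lower over all genes. These counts were 748 and 409 with DESeq2, 31 and 35 with upper quartile scaling, 235 and 137 without the filter, 10 and 12 with limma on log2(FPKM + 1), 15 and 12 on log2(FPKM + 0.1) and 5 and 4 without the FPKM filter. At least 10 counts in every library gave 28 higher, and the name form as a covariate 120 lower. Leaving out 1 liver gave 0 to 576 higher and 0 to 352 lower, with 0 of each without AAV8-TBG-GFP 2 or AAV8-TBG-Cre 2 and the highest counts without AAV8-TBG-Cre 1. At the unadjusted threshold the 1129 lower genes became 737 with upper quartile scaling, 365, 376 and 364 in the 3 limma fits, and 735 to 1712 on leaving out 1 liver. The causes were not tested.

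Of the members, 1 was called. DESeq2 called 3 (S100a8, adjusted p = 0.00482, S100a9, 0.0340, and Ngp, 0.00707). None was called with at least 10 counts in every library, where S100a8 was not tested, or with the name form as a covariate, and leaving out 1 liver gave 0 to 2, with S100a8 and Csf3r (edgeR adjusted p = 0.0396) without AAV8-TBG-Cre 1. The log2 fold change of S100a8 ranged from 1.39 to 2.19 over 16 settings, that of S100a9 from 1.17 to 1.80, of Csf3r from 0.55 to 1.22 and of Ly6g from -0.62 to -0.29 over 17 settings each, so none of these 4 changed sign. Csf3r missed the unadjusted threshold in 2 settings and Ly6g in 5. Ngp ranged from 0.97, on log2(FPKM + 1), to 7.79, without AAV8-TBG-GFP 1, where the AAV8-TBG-GFP livers left had 0 counts. The lowest values of S100a8 and S100a9 were also those on log2(FPKM + 1), whereas log2(FPKM + 0.1) gave 2.15 and 1.52. On leaving out 1 liver Il1b ranged from -0.092 to 0.44, being below 0 without AAV8-TBG-GFP 1, AAV8-TBG-GFP 3 (-0.055) or AAV8-TBG-Cre 3 (-0.049), and Elane, unfiltered, reached -0.032, -0.030 and -0.042 without AAV8-TBG-GFP 1, AAV8-TBG-GFP 2 and AAV8-TBG-Cre 1. The median over all genes moved from -0.01 to 0.11 and 0.14 on the FPKM scales.

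The replicate numbers are not stated to pair the livers. Same-numbered livers correlated at 0.009, -0.26 and 0.21 in their deviations from the group means, values too few to decide whether they were paired. With the number as a block 1 gene was higher, 6 were lower and 0 members were called, S100a8 having an edgeR adjusted p of 0.115.

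Depth limits Retnlg, Ngp, Camp, Mpo and Elane, with 2 to 20 counts summed over the AAV8-TBG-GFP livers, so their ratios rest on few fragments.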

Other observations

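Markers of other cell types were read in the same libraries. Eosinophil, basophil and mast cell genes were nearly absent, with none of 8 passing the filter and a summed CPM of 0.366 to 0.408 in AAV8-TBG-GFP livers and 0.481 to 1.35 in AAV8-TBG-Cre livers. Siglecf held most of it in each liver except AAV8-TBG-Cre 1, where it was 0.239 of 0.620 CPM. It had 27 counts in AAV8-TBG-Cre 2 and at most 8 in the other livers. Of 10 T and NK cell genes 3 were tested, with 1 higher and 1 lower at the unadjusted threshold, against 12% and 8.41% of all genes. Of 5 B cell genes 1 was tested and was higher at that threshold. Of the bile duct list, 5 of 5 genes were higher at the unadjusted threshold, against 12% of all genes. Their median log2 fold change was 2.39, and Sox9 and Spp1 passed an edgeR adjusted p under 0.05. Both calls were lost with upper quartile scaling, with at least 10 counts in every library, with the replicate number as a block and in the limma fits. Both were also lost on leaving out any liver other than AAV8-TBG-Cre 1, and the call of Sox9 was lost with RLE scaling too.

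Of 6 stellate cell and fibroblast genes 3 were higher at the unadjusted threshold (median 0.71), against 12% of all genes. Of 6 endothelial genes none was higher and 1 was lower (median -0.29), where 8.41% of all genes were lower. Hepatocyte genes had a median of 0.09 over 8, with 1 higher and 1 lower, against 12% and 8.41% of all genes. Red cell and platelet genes, which would move with blood left in the liver, had a median of 0.02 over 8 tested, none called at the unadjusted threshold in edgeR, and a summed CPM of 478 to 846 in AAV8-TBG-GFP livers and 438 to 945 in AAV8-TBG-Cre livers, with the highest value in AAV8-TBG-Cre 2. Without that liver the median was -0.39, 2 of 8 were positive and 2 were lower at the unadjusted threshold. Their part in the differences of the neutrophil genes was not tested.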
